A study of Canis lupus familiaris with 124 samples.

Results

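TCC1506, also called TihoDUrtTCC1506, is a canine cell line that was grown out of a transitional cell carcinoma (TCC) of the urinary bladder, and B7 is the frozen tumor tissue it was grown from. The 3 libraries of TCC1506 and the single library of B7 were chosen by their labels, and they make up 4 of the 31 RNA-seq libraries of the series, or 16 of its 124 lane tables. The libraries used here cover 8 canine prostate and urothelial cancer cell lines and 9 tumor or metastasis tissues, and the study's text describes B7 as a tumor consisting almost only of tumor cells. Line and tissue come from the same female Labrador Retriever, aged 10 years, and no treatment was given to the cells. By their labels, the other lines were at passages 68 to 448, and the other dogs were aged 6 to 11 years.

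The cells were kept in Medium 199 with 10% fetal calf serum and were collected from flasks at passages 98, 106 and 107, called libraries 1, 2 and 3 below. They are flasks of 1 established line, so their spread measures culture and handling and not variation between tumors. RNA of cells and tissue was isolated with different kits of the same maker, so kit and sample type cannot be told apart. The depth was 15594055 counts in B7 and 16945642 to 19231681 in TCC1506, and 12993 genes had at least 10 counts in B7, fewer than in any of the 8 other tissues (13566 to 14650). Library 3 and B7 carry the same sample number, 6, in their labels and therefore belong to separately numbered sets. Values without each library are given with the limits.

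A bulk tumor library holds RNA of cancer cells, fibroblasts, vessels and immune cells, whereas a long-passaged line holds RNA of cancer cells alone. Genes of the non-cancer cells therefore fall in a line whatever the cancer cells do, and a tissue with little stroma holds fewer such transcripts to begin with. Urothelial tumors keep genes of basal cells, such as TP63 and laminin 332 subunits, or of luminal cells in varying measure. In bulk samples, fewer cells of a type and less RNA per cell cannot be told apart.

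B7 held low levels of most genes of vessels and myeloid cells compared with the 8 other tissues, but not of every stromal gene. The 26 measured myeloid genes summed to 248 CPM (counts scaled to a common library size) in B7 and to 1881 to 6599 CPM in the other tissues. Of the 248 CPM, 106 came from CD74 and 35.7 from DLA-DRA, genes of antigen presentation with medians of 1688 and 883 CPM in the other tissues. The 11 endothelial genes summed to 98.1 CPM against 303 to 2449 CPM. B7 was thus the lowest of the 9 tissues for both lists. B7 was also below all 8 other tissues in 20 of the 26 myeloid and in 9 of the 11 endothelial genes, where 18.9% of all tested genes had their lowest value in B7. The 22 fibroblast matrix genes summed to 1771 CPM, the second lowest value in a range of 1539 to 118707 CPM in the other tissues. The 10 lymphocyte genes summed to 94.6 CPM, inside the range of the other tissues (14.8 to 585), and 87.0 CPM of it came from RGS1, a regulator of G protein signaling known from activated lymphocytes.

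Genes of basal epithelium and of dividing cells were high in B7. The 10 basal epithelial genes summed to 4152 CPM and the 15 mitosis genes to 1269 CPM, in both cases the highest sum of the 9 tissues. TP63, the transcription factor of basal epithelium, was at 170 CPM in B7 and at 0.233 to 56.9 CPM in the other tissues. The 10 luminal genes with an identifier summed to 993 CPM, in the middle of the 9 tissues. This was below every other primary TCC tissue (1323 to 3200 CPM). Measured against the description of B7 as almost only tumor cells, vascular and myeloid genes were the lowest of the tissues but not at 0, and the matrix sum of 1771 CPM lay within that of the bladder tissues B8, B9 and B10 (1539 to 2278 CPM).

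**Figure D1:**
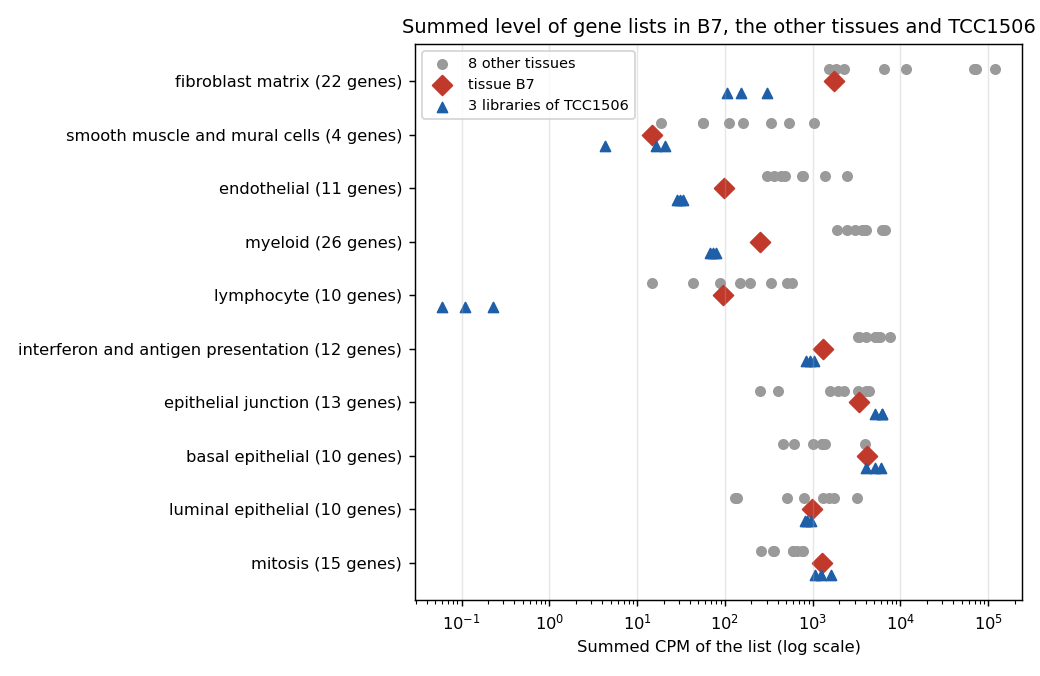
Summed TMM-normalized CPM of 10 gene lists on a log scale, with 1 point per library for the 8 other tissues (grey), B7 (red) and the 3 libraries of TCC1506 (blue). B7 lies below all other tissues for the endothelial and myeloid lists and at the upper end for the basal epithelial and mitosis lists, where TCC1506 lies beside it.

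Because B7 has 1 library, no test was made between line and tissue. A gene was called lower or higher where the ratio to B7 was at least 2-fold in the same direction in each of the 3 libraries, among 13501 genes with at least 10 counts in B7 or in every library of TCC1506. By this rule 1610 genes (11.9%) were lower and 1418 (10.5%) higher in TCC1506, and 10473 (77.6%) were neither. At a fold of at least 4, 891 genes (6.6%) were lower and 617 (4.57%) higher. The median log2 ratio over all tested genes was -0.04, and the median SD of a gene's log2 ratio over the 3 libraries was 0.29. The range over the 3 libraries exceeded 1 on the log2 scale in 21.4% of the genes. Of the lower genes, 887 passed the count filter only through B7, and of the higher genes, 443 passed only through TCC1506.

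The other matched pairs of the series had more falls and wider differences. The share of genes lower in the line was 26.2% in TCC1509 against P6.1, 33.3% in Adcarc0846 against P2, 25.7% in Metadcarc1511.2 against Ln4.2 and 24.5% in Metadcarc1511.3 against Ln4.3. The median absolute log2 ratio was 0.63 in TCC1506 against B7 and 0.80 to 1.28 in the other pairs. The share of genes higher in the line was 11.4%, 20.6%, 7.63% and 7.86% in the same order, beside 10.5% in TCC1506. Falls thus made up a smaller share in TCC1506, and with 1 tissue library per pair this difference was not tested. Adcarc0846 has 2 libraries, so its rule is easier to meet. The Metadcarc1511.2 and Metadcarc1511.3 pairs come from 1 dog, so they are not independent. Among the tissues, P6.1 and Ln6.2 also share a dog.

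TCC1506 was closer to B7 than to the other tissues, and B7 was closer to TCC1506 than to the other lines. Across 17465 genes, the Pearson correlation of mean log2 CPM was 0.90 and the Spearman correlation 0.92. The next tissue for TCC1506 was B9, at a Pearson correlation of 0.82, and the next line for B7 was Adcarc1508, at 0.88. These are descriptions across genes, which are not independent replicates.

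To see which falls lie outside the genes of stromal and immune cells, the lower genes were split by whether the 7 other cell lines held them, meaning at least 1 CPM in every library of a line. Genes that no other line held were lower in TCC1506 in 538 of 1231 cases (43.7%). Over all tested genes, 1276 passed the count filter only through B7, and 887 of these were lower. The filter may thus have fixed part of the 43.7%, as such genes among the 1231 were not counted apart. Genes held by at least 4 other lines were lower in 774 of 11141 cases (6.95%) and higher in 925 (8.30%). Of the 1610 lower genes, 33.4% were held by no other line, 66.6% by at least 1, 48.1% by at least 4 and 33.2% by all 7. Of the 7 other lines, Adcarc1511.1, Metadcarc1511.2 and Metadcarc1511.3 come from 1 dog, so a count of lines is not a count of independent tumors. The 774 genes held by at least 4 lines were also lower in 28.2% to 35.3% of cases in the other pairs and higher in 8.79% to 23.3%. All tested genes held by at least 4 lines were lower in 8.72% to 17.2% of cases in those pairs, and all genes tested in each pair in 24.5% to 33.3%. For genes held by no line, a fall in the other pairs is largely fixed by that definition and is not given. The 1610 lower genes as a whole were also lower in 52.7% to 56.1% of cases in the other pairs, which is 18.1% to 24.0% of those pairs' own falls. The 1610 include the 538 genes held by no other line, so the definition fixed part of this overlap as well.

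A further set was defined without TCC1506 or B7, as 228 genes with at least 5 CPM in 6 or more of the 8 other tissues and at most 0.5 CPM in every library of the 7 other lines. In B7 these tissue-only genes had a median of 1.71 CPM, against 26.7 CPM for the median of the other tissues, and their sum of 2388 CPM was below the 4016 to 151944 CPM of the others. B7 was below all 8 other tissues in 151 of them (66.2%). The set was chosen for high levels in those 8 tissues, which by itself places B7 lower. Of the 195 genes tested in TCC1506, 169 were lower, 11 higher and 15 neither, beside 11.9% lower and 10.5% higher of all tested genes. As the line was near 0 for most of them, 169 of the 195 passed the filter only through B7, among them 166 of the lower genes, so the filter largely fixed the count. Further, 117 of the 228 had no count in any library of TCC1506. They made up 10.5% of all lower genes.

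**Figure D2:**
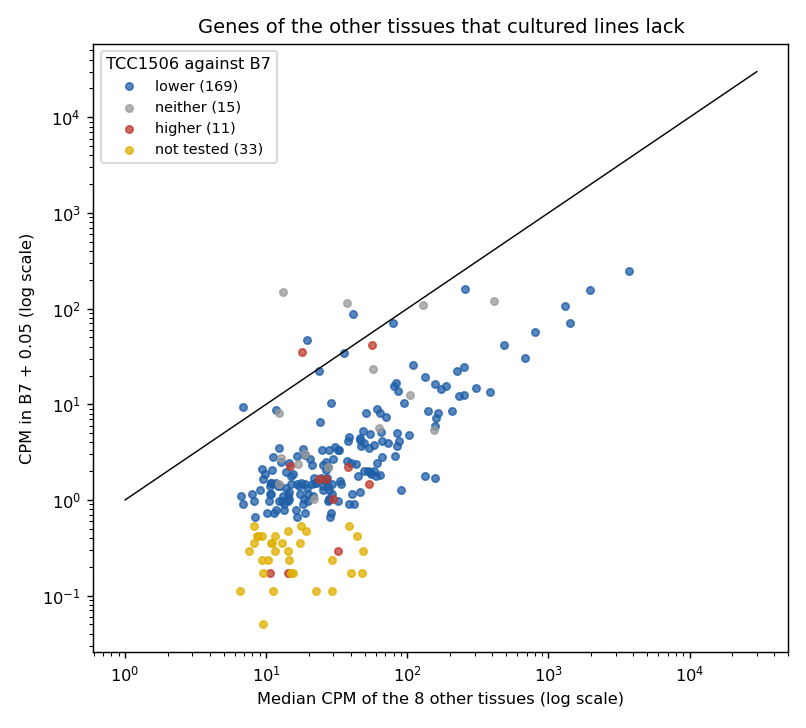
CPM in B7 (with 0.05 added) against the median CPM of the 8 other tissues for the 228 tissue-only genes, on log scales, colored by the call of TCC1506 against B7. Most points lie below the line of equal levels, with a few genes near or above 100 CPM in B7.

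Some of these genes were plainly present in B7. RGS1 had 1422 counts in B7 and none in the 3 libraries, at least 480-fold lower against a floor of 3 counts per library. C1QC and C1QB, subunits of the complement component C1q made by macrophages, had 397 and 363 counts in B7 and none in TCC1506. The gene ENSCAFG00000030258, which has no symbol in the sources used here, had 4049 counts in B7 and none in TCC1506. CCDC3 had 561 counts in B7 and 3, 14 and 15 in TCC1506. The line thus had no more than traces of each of the genes just named. Intervals and floors cover counting error only. Other tissue-only genes stayed present, as 24 of the 228 had at least 1 CPM and 17 at least 5 CPM in all 3 libraries of TCC1506. ENSCAFG00000001091, ENSCAFG00000002040, ENSCAFG00000011172 and ENSCAFG00000030180 were called neither. They had 108 to 151 CPM in B7 and means of 85.2 to 190 CPM in TCC1506. Of the 44 tissue-only genes with a symbol, COL1A1, GPC4, SERPINA1 and TMEM173 had at least 1 CPM in all 3 libraries of TCC1506. The other lines have at most 0.5 CPM by the definition of the set.

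Fibroblast matrix genes were lower in most cases, with 12 of 19 tested members lower and none higher, beside 11.9% lower of all tested genes. Of the 19, 6 passed only through B7, and the list had a median log2 ratio of -3.62 beside -0.04 for all tested genes. COL1A2, a chain of type I collagen, had 1719 counts in B7 and 1, 0 and 2 in TCC1506. COL1A1, the other chain of the same collagen, had 2541 counts in B7 and 175, 353 and 1285 in TCC1506. The chains were thus at like ratios in B7 and the other tissues, 1.48 COL1A1 per COL1A2 in B7 against 0.857 to 1.60, and apart in the line. COL3A1, the chain of type III collagen, had 154 CPM in B7 and 39.4, 43.0 and 92.3 CPM in TCC1506, and library 3 kept it from the call. COL6A1 had 452 counts in B7 and 3, 0 and 1 in TCC1506, and POSTN, periostin, had 274 in B7 and none in TCC1506.

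Within B7, matrix genes did not go down together. DCN, decorin, a proteoglycan of fibroblasts, had 3.73 CPM in B7 and 22.9 to 3462 CPM in the other tissues. BGN, biglycan, a related proteoglycan, had 486 CPM, close to the median of the other tissues (484). The ratio of BGN to DCN in CPM, not scaled to length and so compared only between tissues, was 130 in B7 and 0.185 to 4.37 in the other tissues. COL5A2, a chain of type V collagen, and MMP2, a matrix metalloproteinase, were likewise high beside DCN, at ratios of 119 and 42.8 in B7 against at most 6.29 and 2.98 elsewhere. These ratios were computed after the values were seen. In TCC1506, BGN was at 1.48, 1.03 and 2.15 CPM, and MMP2 had 5, 0 and 4 counts against 2613 in B7, so both were nearly absent from the line. BGN was held by 2 of the other lines and MMP2 by none. FBLN1, a fibulin, fell from 50.1 CPM to 4.05, 2.96 and 4.58, with all 7 other lines holding it. FBLN1 was also lower in each of the other pairs.

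Of 11 measured endothelial genes, 10 were tested and 9 were lower, beside 11.9% of all tested genes. All 9 passed the count filter only through B7, where they are higher, so the filter largely fixed this count. VWF, the von Willebrand factor of vessels and platelets, was at 29.0 CPM in B7 and at 1.77, 0.483 and 1.49 in TCC1506. KDR, the VEGF receptor 2, fell from 226 counts to 3, 0 and 6. FLT4, the VEGF receptor 3, was the exception, with 27.4 CPM in B7 and 31.2, 26.5 and 26.8 CPM in TCC1506, and all 7 other lines held it. Of the 4 measured genes of smooth muscle and mural cells, 2 were tested, and SPEG was lower while ACTA2, smooth muscle actin, had 12.2 CPM in B7 and 4.22, 16.3 and 20.3 in TCC1506.

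Of 26 measured myeloid genes, 22 were tested and 20 were lower, beside 11.9% of all tested genes, but 19 of the 22 passed only through B7, so the filter largely fixed this count too. In TCC1506, 13 of the 26 had no count. CSF1R, the receptor of macrophage colony-stimulating factor, had 168 counts in B7 and none in TCC1506. The lymphocyte list had 4 tested members, RGS1, ITGA4, IL2RG and RAC2, which all passed only through B7 and were all lower.

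Genes of antigen presentation did not all follow the myeloid pattern. DLA-DRA, the alpha chain of a class II molecule, had 583 counts in B7 and none in TCC1506. CD74, the invariant chain that accompanies class II molecules, had 106 CPM in B7 and 72.2, 64.5 and 69.6 CPM in TCC1506, and was not called. The class I gene DLA-12 was at 272 CPM in B7 and at 5.48, 4.11 and 5.69 CPM in TCC1506, 53.2-fold lower in the pooled libraries (95% exact counting interval 47.0 to 60.4). All 7 other lines held DLA-12, at 57.9 to 349 CPM, so TCC1506 lay below every library of the others. DLA-12 was also lower in all 4 other pairs. Class I genes share sequence, and DLA-79 fell from 145 counts to 0, so reads may be split between them. IFNGR2, a chain of the interferon gamma receptor, fell from 300 CPM to 69.8, 72.4 and 71.0, and RIPK2, a kinase of innate immune signaling, rose from 13.5 CPM to 66.5, 74.5 and 58.1.

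**Figure D3:**
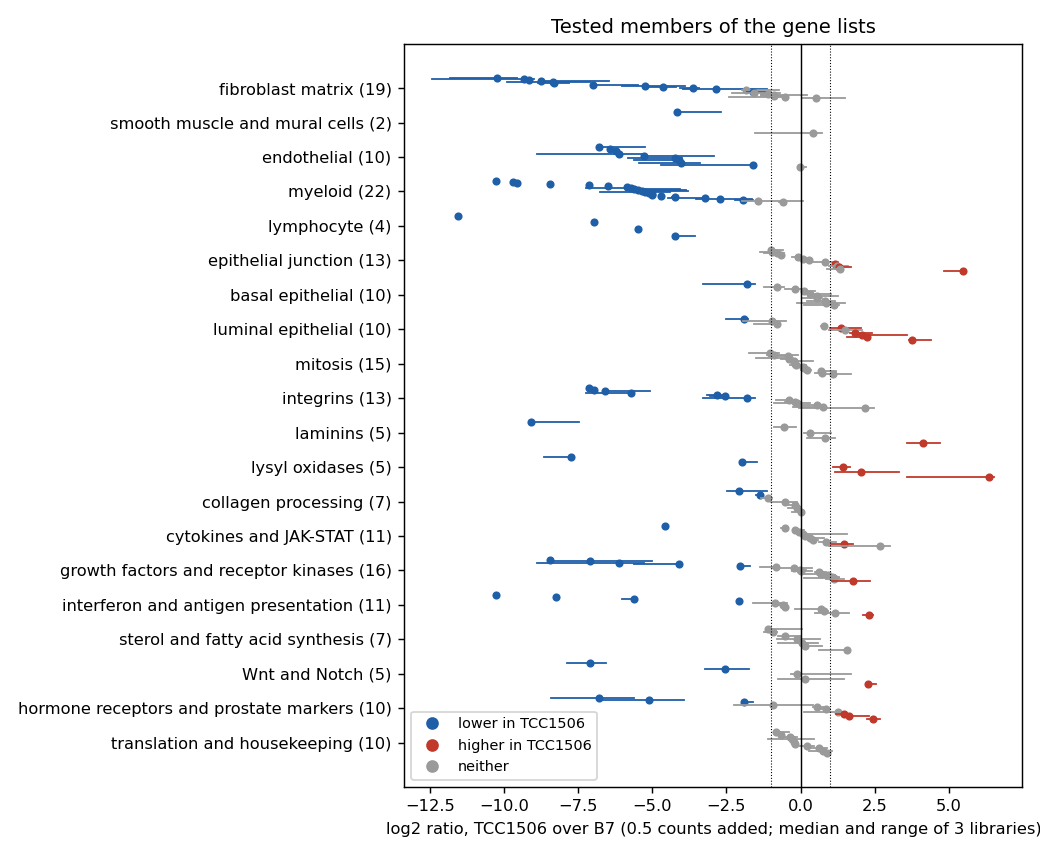
The log2 ratio of TCC1506 over B7 for the tested members of 20 gene lists, with the median as a point and the range of the 3 libraries as a line, colored by the call; dotted lines mark 2-fold. Immune and vascular lists lie to the left, the mitosis, sterol and housekeeping lists lie around 0, and integrins and lysyl oxidases spread widely.

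Junction genes were called about as often as other genes, and luminal genes more often higher than lower. None of 13 tested junction genes was lower, 3 were higher (PERP, OCLN and PKP2) and 10 were neither, where 10.5% of all tested genes were higher and 77.6% neither, and the median log2 ratio was 0.29. EPCAM, the epithelial cell adhesion molecule, had 302 CPM in B7 and 156, 173 and 117 CPM in TCC1506. PKP2, plakophilin 2 of desmosomes, stood out with 41 counts in B7 and 1268, 1880 and 2055 in TCC1506. PKP2 was at 2.46 to 246 CPM in the other tissues, so its 2.51 CPM in B7 were at their low end. JUP and PKP3 were above B7 in all 3 libraries but 2-fold in only part of them, and without library 2 the list had 5 higher members and 1 lower member, CLDN7, a claudin.

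Of 10 basal epithelial genes, 9 were neither, beside 77.6% of all tested genes, and ITGB6, an integrin subunit of epithelia, was lower. TP63 had 170 CPM in B7 and 482, 155 and 310 in TCC1506, while the 19 libraries of the other lines reached at most 0.13 CPM. The values of the line were thus on both sides of B7 and far from those of the other lines. The laminin 332 subunits LAMA3 and LAMB3 had 611 and 513 CPM in B7 and were at 718 to 1382 and 562 to 1055 CPM in TCC1506. MUC13, a luminal mucin that no other line held, had 533 CPM in B7, the highest of the 9 tissues, and 377, 137 and 272 in TCC1506. Among 10 luminal genes 5 were higher, beside 10.5% of all tested genes, with RIPK4, a kinase of epithelial differentiation, at 6.43 CPM in B7 and 82.3, 87.2 and 138 in TCC1506, and 1 lower, TMPRSS2, a serine protease. TGM1, DLX3, SYTL1 and SYTL2 were the other higher genes, and the list's sum was 993 CPM in B7 and 824 to 949 CPM in TCC1506, with MUC13 and MALL, the members with the highest CPM in B7, below B7 in all 3 libraries.

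Genes of proliferation, lipid synthesis and translation did not meet the rule. None of 15 mitosis genes, 7 sterol and fatty acid genes or 10 translation and housekeeping genes was called in either direction. Of all tested genes, 77.6% were likewise called in neither direction. CCNB1, cyclin B1, had 158 CPM in B7 and 95.3, 46.9 and 76.9 in TCC1506, and CCNB1 was called lower without library 1. CKAP5, a microtubule polymerase, had 146 CPM in B7 and 479, 239 and 308 in TCC1506, and was called higher without library 2. B7 was the highest of the 9 tissues in 12 of the 15 mitosis genes. FASN, fatty acid synthase, had 1491 CPM in B7 and 702, 689 and 1548 in TCC1506, and was called lower without library 3, at a median log2 ratio of -1.10.

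Integrins, the receptors that bind cells to matrix, were lower in 7 of 13 tested members, where 11.9% of all tested genes were lower, and none was higher. Of the 13, 4 passed the count filter only through B7. ITGAV, the alpha V subunit, had 1140 CPM in B7 and 194, 138 and 200 CPM in TCC1506. ITGB5 fell from 796 CPM to 143, 89.1 and 112, and ITGB6 from 3026 counts to 333, 884 and 1144, and both of their products pair with ITGAV. The lowest value of ITGAV in the other lines was 207 CPM, above all 3 libraries of TCC1506, and none of the other pairs was called for it. ITGB5 was also lower in TCC1509, Adcarc0846 and Metadcarc1511.2 against their tissues, at median log2 ratios of -1.98, -3.46 and -1.34. ITGB6 was lower in TCC1509 (-5.12) and higher in Adcarc0846 (1.61) and Metadcarc1511.2 (2.48). The other 4 lower integrins, ITGA4, ITGA11, ITGAX and ITGB2, are known from leukocytes or fibroblasts and had 46 to 72 counts in B7 and at most 1 in TCC1506. ITGB3 had 40.6 CPM in B7 and 39.4, 183 and 227 in TCC1506, and was called higher without library 1, at a median log2 ratio of 2.32. ITGA3 and ITGB1 were not called.

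The lysyl oxidases, enzymes that crosslink collagen and elastin, were all called and in both directions. LOXL2 had 910 counts in B7 and 4, 4 and 2 in TCC1506, 291-fold lower (157 to 608). LOXL3 fell from 10.3 CPM to 2.57, 3.69 and 2.60. LOX had 21 counts in B7 and 279, 2019 and 1962 in TCC1506, and libraries 2 and 3 were thus well above library 1. LOXL1 rose from 70.8 CPM to 152, 193 and 226, and LOXL4 from 8.39 to 83.5, 34.3 and 18.9. Of the enzymes that modify procollagen, PLOD1, a lysyl hydroxylase, and PPIC were lower. The other 5 of 7 were neither, beside 77.6% of all tested genes. Of 5 laminins, LAMA4, a vascular laminin chain, fell from 259 counts to 0, 1 and 0, and LAMB2 rose from 118 counts to 3295, 1436 and 2279.

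Of 16 tested growth factor and receptor kinase genes, 5 were lower (KDR, TEK, CSF1R, PDGFB and BRAF), VEGFA was higher and 10 were neither. Of all tested genes, 11.9% were lower, 10.5% higher and 77.6% neither. Of the 16, 4 passed the count filter only through B7. VEGFA, the growth factor of vessels, had 397 CPM in B7, the highest of the 9 tissues, and 834, 1367 and 2020 in TCC1506. PDGFB, a platelet-derived growth factor, had 745 counts in B7 and 2, 5 and 25 in TCC1506. PDGFB was also lower in TCC1509 against P6.1 and Adcarc0846 against P2, and neither in the Metadcarc1511 pairs. Its ratio to VWF was 1.58 in B7 and 0.0522 to 0.474 in the other tissues, as computed after the values were seen. EGFR, the epidermal growth factor receptor, had 99.5 CPM in B7 and 246, 108 and 216 in TCC1506, and without library 2 it was called higher and the list had 4 higher members. Of 11 cytokine and JAK-STAT genes, OSM was lower, IL22RA1 higher and 9 neither. OSM had 11 counts in B7 and passed the filter only through B7. Of 5 Wnt and Notch genes, LEF1 and TCF7 were lower and FZD3 higher. LEF1 passed only through B7, and FZD3, with 5 counts in B7, only through TCC1506. LEF1, a transcription factor of Wnt signaling, fell from 323 counts to 2, 3 and 1. NOTCH1 had 272 CPM in B7 and 747, 159 and 301 in TCC1506. In the list of hormone receptors and prostate markers, AMACR and PSCA were lower and FOLH1, GOLM1 and GSTP1 were higher.

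Among the falls that at least 4 other lines held, SLC2A10, a glucose transporter of the GLUT family, was the largest with a symbol. It had 764 counts in B7 (46.8 CPM) and none in the 3 libraries of TCC1506, at least 258-fold lower, whereas the 19 libraries of the other lines had 28.9 to 170 CPM. Only 3 genes held by all 7 other lines had no count in any library of TCC1506, and SLC2A10 was the one among them with a symbol. In the other pairs SLC2A10 was not lower, and it was higher in Metadcarc1511.2 and Metadcarc1511.3, which come from the same dog. CMBL, a hydrolase, had 251 counts in B7 and 0, 1 and 1 in TCC1506, with 1.90 to 75.9 CPM in the other lines. SHOX2, a homeobox gene, had 84 counts in B7 and 2, 5 and 5, and was held by all 7 other lines. CMBL was also lower in Adcarc0846 against P2, at a median log2 ratio of -1.45, and SHOX2 in that pair and in Metadcarc1511.2 against Ln4.2, at -2.23 and -1.26. For all 3 genes the level in B7 lay inside the range of the other tissues.

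COL5A2 was held by all 7 other lines, too. It was at 443 CPM in B7, at 6.85, 11.7 and 29.5 CPM in TCC1506 and at 1.39 to 1746 CPM in the other lines, a pooled fold of 27.3 (25.4 to 29.3). COL5A2 was also lower in TCC1509 against P6.1 and Adcarc0846 against P2, at median log2 ratios of -7.83 and -1.84, and neither in the Metadcarc1511 pairs. FAM83A, known from epithelial tumors, was at 56.6 CPM in B7, above the highest of the other tissues (9.29), and at 1.94, 2.11 and 4.47 in TCC1506, 19.7-fold lower (16.6 to 23.6). FAM83A was higher in Metadcarc1511.2 and Metadcarc1511.3, which come from the same dog. The remaining genes of this group, A2M, CHST7, SLC2A6, PALD1 and LRRC75B, had 16 to 268 counts in B7 and at most 28 in a library of TCC1506. CHST7 was also lower in each of the other pairs. A2M and PALD1 were lower in TCC1509 and Adcarc0846, and LRRC75B in Adcarc0846 and Metadcarc1511.3. SLC2A6 was higher in TCC1509 and A2M in Metadcarc1511.2. The gene ENSCAFG00000001148, held by all 7 other lines, had 3110 counts in B7 and 0, 0 and 5 in TCC1506.

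**Figure D4:**
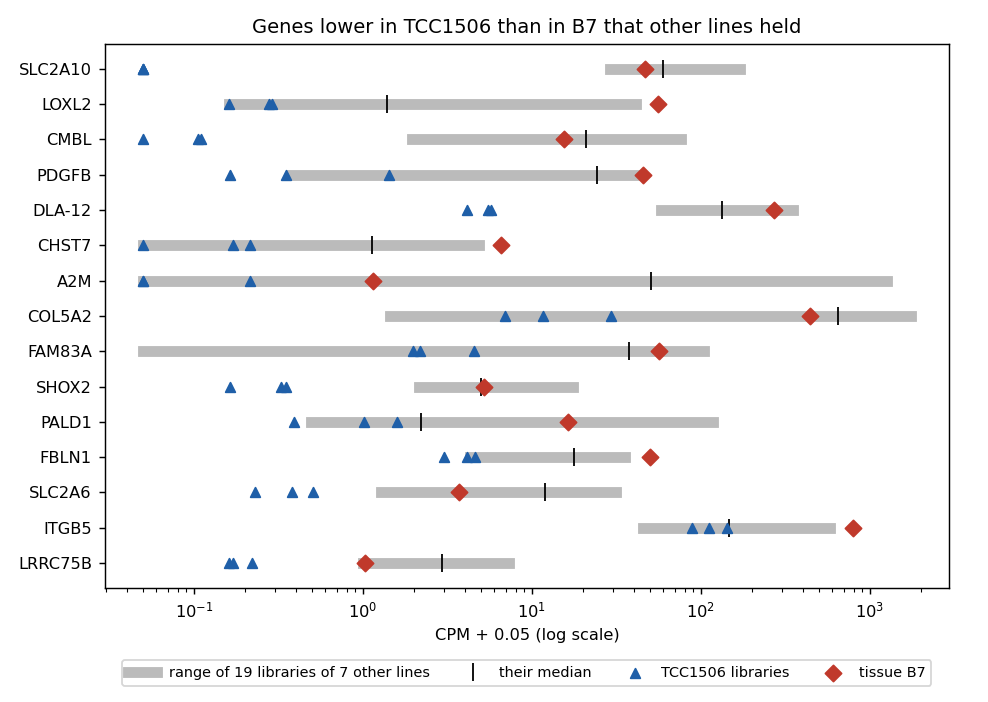
CPM (0.05 added, log scale) of the 15 genes with the lowest ratio among falls that at least 4 other lines held, in B7 (red), the 3 libraries of TCC1506 (blue) and as the range and median of 19 libraries of the 7 other lines (grey, black). For SLC2A10, CMBL, DLA-12, SHOX2, SLC2A6 and LRRC75B all libraries of TCC1506 lie below the range of the other lines.

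The highest rises were of genes with few counts in B7. ANOS1, anosmin 1 of the extracellular matrix, had no count in B7 and 69, 142 and 135 counts in TCC1506, at least 21.4-fold higher. FEZ1, an adaptor protein of axon growth, had 4 counts in B7 and 138, 429 and 403 in TCC1506, a fold of 75.9 (29.6 to 279), and the other lines reached at most 0.14 CPM. PARD3B, a polarity protein, rose from 22 counts to 2097, 754 and 1222, and BACE2, a protease, from 54 to 2341, 2172 and 2064. For PARD3B, BACE2 and LAMB2, B7 was below all 8 other tissues, and the line lay inside the range of those tissues. TMEM144, TMEM74 and GAD2 completed the highest 10 with PKP2 and LOX. Without symbols, ENSCAFG00000006679 had no count in B7 and 4130, 6720 and 8543 in TCC1506, and ENSCAFG00000002896 none in B7 and 664, 685 and 4213, with at most 0.337 and 0.0687 CPM in the other tissues.

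**Figure D5:**
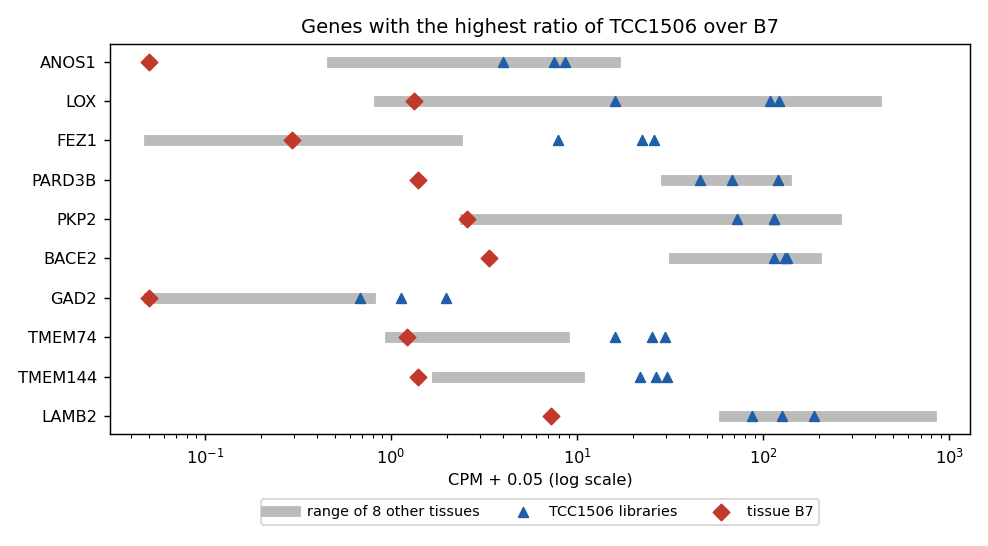
CPM (0.05 added, log scale) of the 10 genes with the highest ratio of TCC1506 over B7, in B7 (red), the 3 libraries of TCC1506 (blue) and as the range of the 8 other tissues (grey). B7 lies below the grey range for BACE2, PARD3B, LAMB2, ANOS1 and TMEM144.

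Of the 67 distinct list members called lower, those of the myeloid, lymphocyte and endothelial lists were mostly absent from the other lines as well. Of 20 lower myeloid genes, 16 were held by no other line and 0 by at least 4. Of 9 lower endothelial genes, 5 were held by none and 1 by at least 4. Of 12 lower fibroblast matrix genes, 5 were held by none and 3 (COL5A2, CTSK and FBLN1) by at least 4. The lower list members held by at least 4 other lines also included ITGAV, ITGB5, ITGB6, LOXL2, LOXL3, PLOD1, PPIC, DLA-12, IFNGR2, BRAF, PDGFB, TCF7, TMPRSS2 and PALD1. Their levels in the other lines differed. LOXL2 had a median of 1.33 CPM there, against 55.7 CPM in B7, and was lower in all 4 other pairs, whereas ITGAV had a median of 428 CPM and was called in none. The level of the stromal, vascular and myeloid lists fell together with the members of these lists, and their part in the falls outside them was not tested.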

How the data were processed

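RNA-seq libraries of canine cell lines and tissues were sequenced on 4 lanes each. Per the labels and the study's methods, the authors trimmed reads with Trimmomatic 0.36, aligned them with STAR 2.5.3 and quantified Ensembl genes with RSEM 1.3.0. The authors deposited expected counts and TPM for 32183 genes per lane, with replicates not pooled. TPM, averaged over lanes, were not used for any printed value.

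Expected counts were summed over the 4 lanes and rounded to whole numbers. CPM were scaled with TMM factors over all 31 libraries (edgeR 4.0.16, R 4.3.3), and ratios used 0.5 added counts. Counting intervals were exact 95% intervals. Python 3.11.15, pandas 2.3.3, numpy 2.4.6, scipy 1.17.1 and matplotlib 3.10.9 were used, and the call rule was tested on simulated data. Symbols of 1120 genes came from the study's supplementary lists, so genes without one carry their identifier. List members without an entry there could not be looked up, so measured members are those with an identifier.

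Named genes were, per list, the 3 members highest in B7, those with the lowest and highest ratio and those called against the majority, then the 10 lowest and highest genes, the 15 lowest falls held by at least 4 lines, the 10 tissue-only genes highest in B7, and 2 identifiers per direction. Some further list members and tissue-only identifiers are named with their values. Members and lists were chosen with earlier results of these data known. Alternatives were other scalings (TMM over 4 libraries, size factors of DESeq2 1.42.0, totals), filters, pseudocounts, folds, pooled libraries and each library left out. No sequence is shown, since none was in the sources used here.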

Additional observations from a re-analysis of the deposited data

Results flagged for a closer look

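Summed log2 levels of 20 lists were compared over the 5 primary TCC tissues, among them B7. B7 stood apart from the 4 others at the low end of the myeloid list, with a gap of 0.724 of the whole range, above the Dixon 95% value of 0.71 for 5 samples. Its sum was 248 CPM, of which 106 came from CD74 and 35.7 from DLA-DRA. P6.1 stood apart at the high end of the fibroblast matrix list, with a gap of 0.728 and a sum of 6522 CPM. About 1 in 20 lists would pass by chance, and 20 were examined.

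Of the named genes, 8 were called in opposite directions in TCC1506 against B7 and in TCC1509 against P6.1, the other matched TCC pair. Over all genes tested in TCC1509 against P6.1, 26.2% were lower and 11.4% higher. Of the 1418 genes higher in TCC1506, 398 (28.1%) were called opposite in TCC1509, which is near that share. Of the 1610 lower genes, 79 (4.91%) were called opposite, and 7 of the 8 named genes are among the higher genes. In all libraries of each line the gene lay on the same side of its tissue, and the difference itself was not tested. ANOS1 had a median log2 ratio of 8.00 in TCC1506 and -4.92 in TCC1509. For BACE2 the values were 5.30 and -1.26, for LAMB2 4.12 and -1.44, and for TMEM144 4.27 and -6.66. FOLH1, the gene of prostate-specific membrane antigen, had 1.63 and -9.27. RIPK4 had 3.76 and -2.23. PERP, a desmosome gene, was higher in TCC1506 and had -1.52 in TCC1509. SLC2A6, a sugar transporter, was the reverse, at -3.36 and 1.39.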

How the results depend on the processing

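No paired analysis was possible because B7 has 1 library and no test was made between tissue and line. TMM over the 4 libraries alone and DESeq2 size factors gave 1588 and 1600 lower and 1439 and 1427 higher genes, and library totals 1763 and 1305. Falls were 53.2% of the calls in the main scaling and 57.5% with totals. Leaving out 1 library of TCC1506 gave 1770 to 1864 lower and 1604 to 1767 higher genes, with the highest count of higher genes without library 1. Without a filter on counts 3002 genes were lower. At a fold of at least 4, counts were 891 lower and 617 higher, 7 list members higher, and 467 and 259 falls held by at least 1 and at least 4 other lines. With pooled libraries, 30 list members were higher and 1201 falls were held by at least 4 lines. Of the tissue-only genes, 93 were lower with a filter of 30 counts and 69 where all 8 tissues had to pass 5 CPM, which is fewer genes by construction.

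Of 66 named genes called, 59 kept their call under each alternative other than the fold of 4, and A2M, FZD3, GAD2, LRRC75B, OSM, RAC2 and SPEG lost it with a filter of 30 counts. None of the called genes changed the sign of its median ratio, and no uncalled gene became called against its main sign. Signs of genes that stayed uncalled were not compared. CCNB1, CKAP5, CLDN7, EGFR, FASN, IL11, ITGB3, JUP, KRT80 and STARD4 were not called, but each was called when 1 library was left out. Without library 1, the cytokine, growth factor and interferon lists each had 2 higher members in place of 1. Low counts limit the endothelial, myeloid and lymphocyte members, most of which had under 100 counts in B7.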
